A study of Mus musculus with 24 samples.

Results

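Astrocytes keep molecular marks of the brain region they come from, and the 12 libraries described here ask which of those marks are present in astrocytes labelled as lacking the transcription factor NFIA. They are the 12 libraries whose titles carry the knockout label, out of 24 in the study, with 3 each from olfactory bulb, hippocampus, cortex and brainstem. In each comparison the libraries of 1 region were set against the average of the remaining regions, and the control libraries stayed out of that test.

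The cells were sorted by fluorescence from C57BL6 mice aged 20 weeks, and 5 ng of total RNA went into each RNA-seq library. Mice labelled knockout had the genotype NFIAfl/fl; Aldh1l1-CreER; Aldh1l1-GFP. Controls were NFIAfl/fl; Aldh1l1-GFP, so both groups carried the floxed allele and the GFP reporter, and only the Cre line set them apart. The Aldh1l1 promoter, which is active in astrocytes, drives both the inducible Cre and the GFP. Induction of the Cre is not described in the sources used here, and no label says which libraries share an animal or whether animals were pooled, so that p-values measure the spread between these libraries only.

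Patterning transcription factors divide the embryonic neural tube into forebrain, midbrain and hindbrain domains, and astrocytes born in a domain often go on expressing its factors in the adult. NFIA, nuclear factor I A, is a DNA-binding protein best known for its part in starting astrocyte formation, and it binds the short motif TTGGC or its paired form. Regional astrocytes also differ in genes for transmitter uptake, retinoic acid turnover and secreted synapse regulators.

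The targeted gene went against the label. Nfia in the 12 libraries labelled knockout had a lowest value of 7457, a median of 10140 and a highest of 13270 normalised reads on the scale of all 24 libraries, and in the 12 controls 3293, 5354 and 7430. Every library labelled knockout thus held more Nfia reads than every control. A gene total cannot show whether reads cover a deleted exon, so the libraries are called libraries labelled knockout throughout. On the scale of the 12 libraries, mean Nfia was 12100 ± 1404 (SD, n = 3) in hippocampus, 10780 ± 648 in cortex, 9791 ± 870 in brainstem and 8131 ± 556 in olfactory bulb. Against the other regions Nfia was lower in olfactory bulb (log2 fold change -0.41, adjusted p = 0.0018, limma) and higher in hippocampus (log2 fold change 0.345, adjusted p = 0.0153), both short of the fold threshold used here.

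The libraries held 1090777 to 24297573 reads, and the shallowest was brainstem library 3. Reads on the ribosomal RNA precursor Rn45s made up 13.5% to 21.1% of brainstem libraries and 17.7% to 20% of cortical ones, against 2.25% to 2.87% of hippocampal ones. Within olfactory bulb the share ran from 2.55% to 20.8%, the highest in library 3. Hippocampal libraries were thus all low and cortical and brainstem libraries all high, and only olfactory bulb held both, so that a fit with the share as a covariate rests on those 3 libraries. By Xist and 4 Y-linked genes, 1 olfactory bulb and 1 hippocampal library were male and the other 10 female. Both male libraries carry the number 1, so that number does not name the same animal in all regions. Libraries numbered 2 and 3 were all female, so sex cannot tell for them. Core astrocyte genes were present in all 12 libraries. Aldh1l1, a folate enzyme used as an astrocyte marker, ranged from 924 to 1658 normalised reads, and Slc1a2, the main glutamate transporter, from 144500 to 419500. Marker genes of other cells were present too, and their summed levels stand beside the results they move with. In sorted bulk samples, fewer cells of a type and less RNA per cell cannot be told apart.

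By median correlation, libraries of 1 region resembled each other more than they resembled any other region, but the ranges overlapped for cortex and brainstem. Over the 11929 genes tested, Pearson's r of log2 values was 0.959 to 0.961 within olfactory bulb, 0.952 to 0.961 within hippocampus and 0.948 to 0.955 within cortex. It was 0.883 to 0.927 within brainstem, which holds the shallowest library. Hippocampal and cortical libraries correlated at 0.927 to 0.951, and olfactory bulb and brainstem at 0.828 to 0.880. Brainstem correlated at 0.844 to 0.896 with hippocampus and at 0.855 to 0.894 with cortex. These values are across genes of single libraries, which share highly expressed genes, and describe the libraries without a test. The first 3 principal components held 30.6%, 20.9% and 11.4% of the variance.

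**Figure D1:**
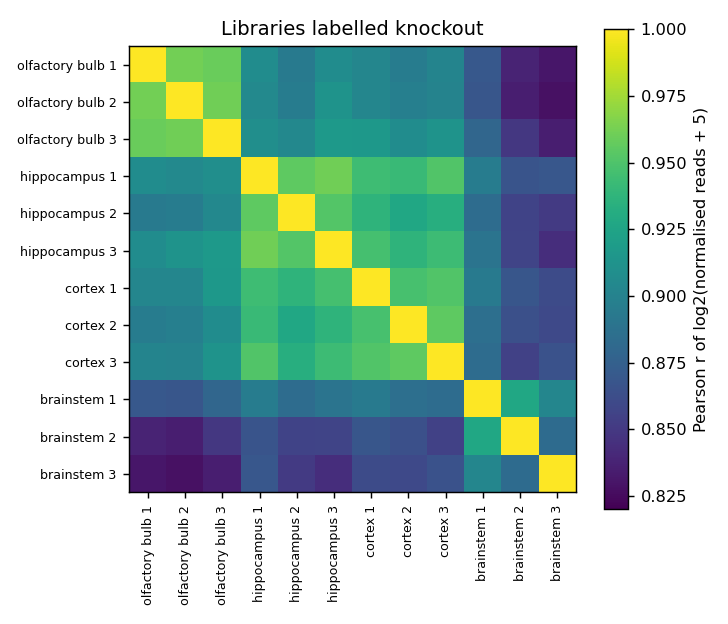
Pearson's r between each pair of the 12 libraries labelled knockout, over log2(normalised reads + 5) of 11929 genes. The 3 libraries of olfactory bulb form the tightest block (0.959 to 0.961), hippocampus and cortex lie close together (0.927 to 0.951), and brainstem is farthest from olfactory bulb (0.828 to 0.880).

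Expression differed among the 4 regions for 2792 of the 11929 genes by limma's F test at an adjusted p under 0.05, which is 23.4%. A gene was called for 1 region where its adjusted p was under 0.05 and its log2 fold change against the mean of the other 3 regions was above 1 in size. Brainstem had 687 genes higher (5.76% of those tested) and 555 lower (4.65%), together 10.4%. Olfactory bulb had 460 higher (3.86%) and 393 lower (3.29%), together 7.15%. Hippocampus had 135 higher (1.13%) and 245 lower (2.05%), together 3.19%. Cortex had 162 higher (1.36%) and 207 lower (1.74%), together 3.09%. The 4 contrasts use the same 12 libraries, so a gene that is high in 1 region is pushed down in the other 3, and counts are not compared between contrasts.

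A stricter reading asks that all 3 libraries of a region lie outside the range of the other 9. By that reading brainstem kept 413 higher (3.46%) and 333 lower (2.79%), and olfactory bulb 323 (2.71%) and 183 (1.53%). Hippocampus kept 57 (0.478%) and 72 (0.604%), and cortex 76 (0.637%) and 64 (0.537%). With the Rn45s share (above or below 10%) as a covariate, a term that only the olfactory bulb libraries can estimate, hippocampus fell from 380 calls to 97, of which 77 were among the 380. Cortex fell from 369 to 137, brainstem from 1242 to 720 and olfactory bulb from 853 to 623. Weighted voom moved the share of brainstem calls that were higher from 55.3% to 68.4%. The same share moved from 43.9% to 57% for cortex and from 35.5% to 48.8% for hippocampus, which the Rn45s covariate moved to 56.7%.

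**Figure D2:**
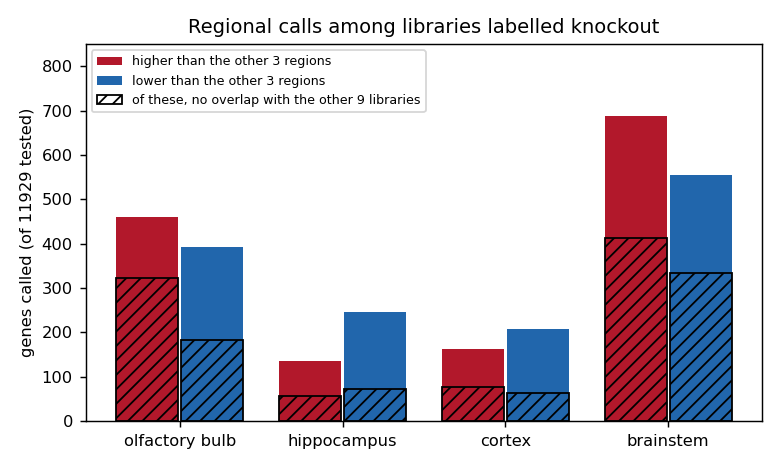
Genes called by region, relative to the other 3 together, among the 12 libraries labelled knockout. Red bars count genes called higher and blue bars genes called lower, and hatching marks those whose 3 libraries do not overlap the other 9 (413 of 687 higher genes in brainstem, 57 of 135 in hippocampus).

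Of 36 factors of the telencephalon, the part of the forebrain that gives rise to cortex, hippocampus and olfactory bulb, 28 passed the filter on low values. In brainstem 15 were lower and 1 higher, with a median log2 difference of -1.28 against -0.02 over all genes. In olfactory bulb 9 were higher and 3 lower, in hippocampus 10 higher and 0 lower, and in cortex 11 higher and 1 lower. Part of those 3 counts follows from the near absence of reads in brainstem, which enters the mean of the other regions. Of the 28 factors, 3 passed the filter only through olfactory bulb and 3 only through cortex, and had to be higher there. The counts of higher factors in these regions are thus descriptions. All 3 libraries lay above the other 9 for 5 of the 28 factors in olfactory bulb (4.71% of all genes), 6 in hippocampus (1.48%), 3 in cortex (1.71%) and 0 in brainstem (5.67%). They lay below the other 9 for 12 factors in brainstem (5.59%), 1 in olfactory bulb (3.28%) and 0 in hippocampus (1.48%) and cortex (1.18%). Of 41 midbrain and hindbrain factors, 15 passed the filter, and 8 were higher and 0 lower in brainstem. Of the 15, 6 passed only through brainstem and had to be higher there, so these counts are descriptions.

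The factor with the largest rise in each region, and Lhx2, which fell most in brainstem, are given here by the 250 bases before their first start site in the RefSeq table (GRCm38.p6, the build named mm10), since a study of NFIA invites a look at its motif there. Capitals mark TTGGC or its reverse complement GCCAA, searched on both strands with overlaps allowed.
Sp8 (chr12:118846079-118846328, plus strand): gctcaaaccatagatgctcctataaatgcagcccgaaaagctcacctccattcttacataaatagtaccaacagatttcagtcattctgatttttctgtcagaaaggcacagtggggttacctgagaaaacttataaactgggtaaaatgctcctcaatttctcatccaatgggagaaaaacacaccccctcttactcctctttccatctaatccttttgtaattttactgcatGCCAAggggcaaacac
Emx2 (chr19:59458440-59458689, plus strand): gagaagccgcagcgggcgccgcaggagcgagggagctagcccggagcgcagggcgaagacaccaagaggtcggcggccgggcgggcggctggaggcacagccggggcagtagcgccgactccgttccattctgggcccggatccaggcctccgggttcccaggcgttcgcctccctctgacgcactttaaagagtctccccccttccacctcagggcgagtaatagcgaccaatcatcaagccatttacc
Six3 (chr17:85620584-85620833, plus strand): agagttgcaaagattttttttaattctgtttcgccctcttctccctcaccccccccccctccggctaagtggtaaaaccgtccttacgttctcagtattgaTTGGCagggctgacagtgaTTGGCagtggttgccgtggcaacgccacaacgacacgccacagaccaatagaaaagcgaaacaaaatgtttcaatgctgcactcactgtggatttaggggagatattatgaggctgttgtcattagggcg
Hoxa2 (chr6:52164832-52165081, minus strand): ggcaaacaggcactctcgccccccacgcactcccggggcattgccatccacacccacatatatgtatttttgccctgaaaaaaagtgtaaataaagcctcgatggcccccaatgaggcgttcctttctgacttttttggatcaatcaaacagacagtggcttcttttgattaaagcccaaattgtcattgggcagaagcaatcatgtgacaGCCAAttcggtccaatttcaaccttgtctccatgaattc
Lhx2 (chr2:38339031-38339280, plus strand): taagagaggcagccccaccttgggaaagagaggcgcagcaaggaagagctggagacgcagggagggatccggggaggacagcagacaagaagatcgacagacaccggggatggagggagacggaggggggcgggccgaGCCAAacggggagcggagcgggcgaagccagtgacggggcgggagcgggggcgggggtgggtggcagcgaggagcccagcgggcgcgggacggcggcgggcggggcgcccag
Six3 had 2 matches, Sp8, Hoxa2 and Lhx2 had 1 each and Emx2 had 0. Among 32851 promoter windows of this length in the table, 41.5% held at least 1 match and 11.5% at least 2. The paired form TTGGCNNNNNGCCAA was in none of the 5 windows and in 0.04% of all windows. The Emx2 and Six3 windows lie before the RefSeq start but inside the wider GENCODE gene spans given below. They may thus hold transcribed sequence, and the 2 Six3 matches may lie in it. All of these matches describe letters in a window and say nothing about binding.

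Lhx2 (chr2:38339281-38369733), a LIM homeodomain factor, had normalised reads of 914, 1132 and 1018 in olfactory bulb, 1690, 1567 and 1966 in hippocampus, and 1425, 1539 and 1488 in cortex. Brainstem held 2 Lhx2 reads in all, a 1100-fold lower level with a 95% counting interval of 303 to 9050. Nr2e1 (chr10:42561963-42583632), the nuclear receptor also called tailless that maintains adult neural stem cells, was at 0 in brainstem and between 385 and 1055 elsewhere. With a limit of 3 reads over the brainstem group, it was at least 386-fold lower there (adjusted p = 3.3e-18, limma). Both factors thus split the libraries into telencephalic and brainstem groups with no overlap.

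Emx2 graded across the telencephalon. This homeodomain factor of the medial cortex and hippocampus (chr19:59458372-59465357) was at 473, 698 and 598 in hippocampus, 374, 363 and 351 in cortex, 12.4, 34.6 and 57.2 in olfactory bulb and 0 in brainstem. The 4 regions did not overlap, in that order. The rise in hippocampus was called (log2 fold change 3.87, SE 0.30, adjusted p = 3.12e-08, limma). Emx2 was called lower in olfactory bulb by limma (log2 fold change -1.55), but not by DESeq2 (-0.39, adjusted p = 0.705) or weighted voom (-1.24, adjusted p = 0.169), and by edgeR the sign was reversed (0.34, adjusted p = 0.794). Fezf2 (chr14:12342094-12348189), a zinc finger factor of forebrain progenitors, followed the same order, with 385, 409 and 375 in hippocampus, 261, 136 and 244 in cortex, 63.3, 91.1 and 124 in olfactory bulb and 0 in brainstem.

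Six3 (chr17:85613608-85629302), a homeodomain factor of the anterior forebrain, was at 57.7, 75.0 and 47.3 in cortex and between 0 and 4.26 in the other 9 libraries (log2 fold change 3.31, SE 0.46, adjusted p = 6.3e-05, limma). Its antisense neighbour Six3os1 was at 64.2, 138 and 87.1 in cortex and at most 7.98 elsewhere. Strand is not stated for the counts, so reads of the overlapping pair may be shared. Tbr1, a T-box factor of cortical neurons, was at 50.2, 61.2 and 63.0 in cortex and between 0 and 25.6 elsewhere (log2 fold change 2.37, SE 0.42, adjusted p = 0.000862, limma). Its call was lost when reads were thinned to the shallowest library (adjusted p = 0.0625, limma). Sp8 (chr12:118846329-118852576), a zinc finger factor of olfactory bulb interneurons, had 316, 358 and 235 in olfactory bulb and at most 29.9 elsewhere (log2 fold change 4.61, SE 0.53, adjusted p = 2.98e-06, limma). Tshz2, a zinc finger factor, was at 1309, 1160 and 1336 in olfactory bulb and between 131 and 406 elsewhere (log2 fold change 2.37, SE 0.26, adjusted p = 1.49e-05, limma).

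Hoxa2 (chr6:52162417-52164831), a homeobox gene of the anterior hindbrain, was at 93.2, 80.0 and 116 in brainstem and had 0 reads in the other 9 libraries, at least 494-fold higher (adjusted p = 5.97e-07, limma). Hoxb3 and Pax3 were likewise at 0 in those 9, at least 327-fold and 392-fold higher in brainstem. Hoxa2, Hoxb3 and Pax3 thus passed the filter on low values only through brainstem. They had to be higher there, so the p-value and fold limits are descriptions. Of the 30 Hox genes in the table, 20 had reads in brainstem, against 2 in olfactory bulb, 1 in hippocampus and 3 in cortex, although only Hoxa2 and Hoxb3 passed the filter. Summed Hox reads were 140, 224 and 78 in the brainstem libraries and at most 5 in any other library. The brainstem libraries were thus the only ones of the 12 with more than a few Hox reads, although the hippocampal libraries are deeper. Irx2 was at 152, 210 and 23.1 in brainstem and at most 5.92 elsewhere, and its relative Irx5 had 1 read in the other 9 libraries together. Both are Iroquois factors of midbrain and hindbrain.

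**Figure D3:**
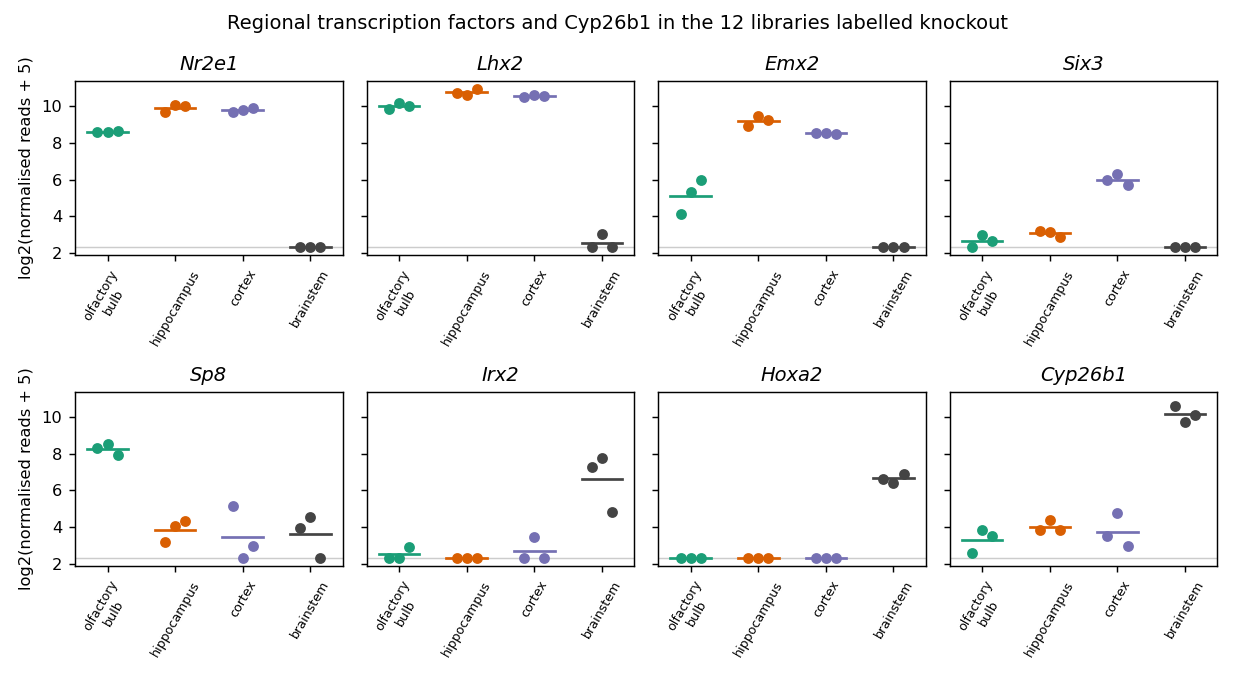
Log2(normalised reads + 5) of 7 patterning factors and Cyp26b1 in the 12 libraries labelled knockout, as points by region with a bar at the mean of 3 libraries and a grey line at 0 reads. Nr2e1 and Lhx2 are high in all regions but brainstem, Emx2 falls from hippocampus to olfactory bulb, Six3 and Sp8 stand out in cortex and olfactory bulb, and Irx2, Hoxa2 and Cyp26b1 stand out in brainstem.

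In olfactory bulb the named genes with the largest rises had varied functions. Clca3a1, annotated as a calcium-activated chloride channel regulator, had 631, 671 and 690 normalised reads in olfactory bulb and at most 11.6 elsewhere (log2 fold change 6.63, SE 0.45, adjusted p = 1.01e-09, limma). Frzb, a secreted Wnt antagonist, was at 977, 889 and 554 against at most 46.7 elsewhere (log2 fold change 5.24, SE 0.40). Islr, a secreted leucine-rich repeat protein, was at 2246, 2637 and 2099 against 14.7 to 160 elsewhere (log2 fold change 5.07, SE 0.24). Each of these separated the 3 olfactory bulb libraries from all others. Sez6, a neuronal complement-domain protein, had 1503, 1995 and 1540 against 17.3 to 105 elsewhere (log2 fold change 4.91, SE 0.33, adjusted p = 8.4e-09, limma). Sphk1, which makes sphingosine-1-phosphate, had 215, 200 and 249 against at most 9.87 (log2 fold change 4.71, SE 0.40). Gpr50, an orphan relative of the melatonin receptors, had 210, 207 and 215 against at most 24.6 (log2 fold change 4.62, SE 0.42), and the matrix gene Fndc1 had 303, 346 and 137 against at most 14.4.

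Fabp7, the brain fatty acid binding protein of radial glia, was at 13330, 14800 and 13710 against 681 to 2177 elsewhere (log2 fold change 3.28, SE 0.12, adjusted p = 4.65e-14, limma). Hs3st3a1, a heparan sulfate sulfotransferase, was at 791, 940 and 918 against 23.1 to 245 (log2 fold change 3.82, SE 0.27). Sema5a, a semaphorin, was at 3938, 4325 and 3404 against 226 to 609 (log2 fold change 3.43, SE 0.23). Of 33 ephrin, Slit and semaphorin genes tested, 9 were higher and 5 lower in olfactory bulb. The ephrin Efna5 was at 608, 951 and 799 against 22.3 to 101 (log2 fold change 3.62, SE 0.24), while the repellent Slit2 was at 9.34, 16.2 and 33.0 against 16.7 to 525 (log2 fold change -2.72, SE 0.31). Of 21 glutamate and GABA receptor genes, 6 were higher and 2 lower. The AMPA receptor subunit Gria1 was at 5991, 6337 and 5991 in olfactory bulb, 1606 to 4576 in brainstem, 536 to 702 in hippocampus and 314 to 408.5 in cortex, with no overlap between regions. The GABA transporter Slc6a11 was at 41190, 41350 and 36660 in olfactory bulb against 8207 to 19850 elsewhere (log2 fold change 1.79, SE 0.08).

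Genes of other olfactory bulb cells were high in the same libraries. Of 17 tested genes of olfactory sensory axons and ensheathing cells, 11 were higher and 0 lower. Frzb and Fabp7, given above, are among these 11. Of these 17, 6 passed the filter on low values only through olfactory bulb and so had to be higher there, as did 4 of the 18 interneuron and neuroblast genes, and the counts are descriptions. Omp, the marker protein of mature olfactory sensory neurons, was at 171, 66.4 and 221 against at most 13.1 elsewhere, and S100a5 was at 157, 47.3 and 58.5 and had 0 reads in the other 9 libraries. Npy, a neuropeptide and ensheathing glia marker, was at 643, 598 and 727 against 3.26 to 47.9 (log2 fold change 5.13, SE 0.42). Of 18 tested bulb interneuron and neuroblast genes, 9 were higher and 1 lower, with the GABA-synthesising enzyme Gad1 at 354, 250 and 342 against 8.57 to 71.6. Summed neuron markers were 4190 to 6800 in olfactory bulb against 4120 to 8240 elsewhere. The part of ensheathing cells, axon fragments or interneurons in the olfactory bulb calls was not tested.

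Of the 6 lower genes with the largest change in olfactory bulb, 4 are on the list for the choroid plexus, which secretes cerebrospinal fluid. Ttr was at 17.6, 5.65 and 10.2 normalised reads there and between 281 and 88780 elsewhere (log2 fold change -8.43, SE 1.18, adjusted p = 0.00166, limma). Prlr had 0 reads in olfactory bulb and 17.6 to 573 elsewhere. Of 13 choroid plexus genes, 5 were lower and 0 higher in olfactory bulb, with a median of -2.49 as fitted and -3.30 with genes at 0 set at their limit of 3 reads. Summed choroid plexus markers were 8580 to 144000 in brainstem, 1170 to 12700 in cortex, 3780 to 9900 in hippocampus and 2680 to 3240 in olfactory bulb, where Folr1, Prlr and Sostdc1 had 0 reads, and their part in these lower calls was not tested. The calls of Kl and Prlr were lost without olfactory bulb library 1 or 2, that of Sostdc1 in 7 of the 12 fits with a library left out, and weighted voom lost all 5. Endothelial markers were lower for 2 of 12 and higher for 0, mural and fibroblast markers for 3 of 12 and 0, and macrophage markers for 2 of 6 and 0. Leaving out 1 library at a time, Tek lost its call in 9 of 12 fits, Pf4 in 7 and Igf2 in 5. Abcc9, Col1a2 and Cd163 lost theirs in 2 each, and of these markers only Ocln kept its call in every fit. Rph3a, a vesicle protein, was at 15.6, 18.4 and 45.8 against 122 to 635 (log2 fold change -3.35, SE 0.32, adjusted p = 9.04e-07, limma). Oligodendrocyte markers were lower as well, with 12 lower and 1 higher of 15 tested. With the Rn45s share as a covariate, 22 of the 112 named olfactory bulb calls were lost, with adjusted p of 0.0502 to 0.211 (limma). Mbp, Mobp, Kl and Sostdc1 were among them.

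In hippocampus the named genes with the largest rises were Emx2, Emx2os and Slit1. Of 21 glutamate and GABA receptor genes 1 was higher (Grm3) and 2 lower (Gria4 and Gria1), with a median log2 difference of 0.29. Besides Emx2, Fezf2 and Lhx2, the antisense transcript Emx2os was at 258, 210 and 193 against 0 to 110 elsewhere (log2 fold change 3.49, SE 0.36, adjusted p = 1.57e-06, limma), with the strand limit given for Six3os1. Fam163a, a membrane protein of little known function, was at 1169, 1248 and 1531 against 98.4 to 555 (log2 fold change 2.41, SE 0.17, adjusted p = 6.7e-09, limma). Nrn1, a secreted neuritin, was at 327, 326 and 354 against 3.11 to 160 (log2 fold change 2.83, SE 0.38). All 3 separated hippocampus from every other library. Slit1, an axon repellent, was at 111, 116 and 49.3 against 1.63 to 11.8 (log2 fold change 3.13, SE 0.45, adjusted p = 8.73e-05, limma). The peptide gene Sst was at 166, 155 and 58.5 against 0 to 32.6 (log2 fold change 2.83, SE 0.42), and the vesicle gene Mal2 at 96.6, 110.5 and 49.0 against 0 to 42.4. Mal2 lost its call without hippocampal library 2. Hopx, a homeodomain protein of quiescent stem cells, was at 3509, 2680 and 4592 against 670 to 1600 (log2 fold change 1.70, SE 0.18, adjusted p = 1.5e-05, limma).

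Several of these genes are also known from neurons. Of 18 neuron markers, 3 were higher in hippocampus (Neurod6, Camk2a and Slc17a7) and 3 lower (Tubb3, Nefm and Gad1), and summed neuron markers were 4730 to 8240 in hippocampus against 4120 to 7110 elsewhere. Their part in the hippocampal calls was not tested. Among lower genes, Shisa9, an AMPA receptor regulator, was at 317, 340 and 276 in hippocampus and between 1285 and 8620 elsewhere (log2 fold change -3.20, SE 0.13, adjusted p = 8.83e-13, limma). Islr, high in olfactory bulb, was lowest in hippocampus, at 14.7, 30.2 and 23.3 against 46.2 to 2637 (log2 fold change -3.50, SE 0.24). Slc6a9, the glycine transporter GlyT1, was at 350, 252 and 333 against 426 to 2663 (log2 fold change -2.13, SE 0.14, adjusted p = 3.98e-09, limma). Adamts5, a matrix protease, was at 4.91, 7.41 and 1.22 against 13.8 to 167 (log2 fold change -2.82, SE 0.39). With the Rn45s share as a covariate, 56 of the 83 named hippocampal calls were lost, with adjusted p of 0.0621 to 0.975. They included Slit1, Mal2, Gria4 and Gria1 and the neuron markers Neurod6, Slc17a7, Tubb3, Nefm and Gad1, but not Emx2, Fezf2, Lhx2, Fam163a, Shisa9, Islr or Slc6a9.

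In cortex, single genes of varied function rose beside Six3. Of 12 retinoic acid genes 0 were higher and 2 lower (Cyp26b1 and Aldh1a1), and of 25 Wnt pathway genes 3 were higher and 2 lower, with a median log2 difference of 0.07. Rpe65, the retinoid isomerase best known from the eye, was at 453, 456 and 333 normalised reads in cortex against 0 to 129 elsewhere (log2 fold change 3.55, SE 0.49, adjusted p = 0.000189, limma). Crym, a crystallin that binds thyroid hormone, was at 112, 116 and 115 against 0 to 15.6 (log2 fold change 3.61, SE 0.42). Hgf, hepatocyte growth factor, was at 273, 338 and 438 against 0 to 267 (log2 fold change 3.17, SE 0.31). For Hgf the lowest cortical library lay just above the highest hippocampal one. Car8, a carbonic anhydrase relative, was at 927, 586 and 1125 against 40.4 to 245 (log2 fold change 3.15, SE 0.38, adjusted p = 0.000102, limma). Lypd6, a Ly6 protein that acts on nicotinic receptors and Wnt signalling, was at 1198, 1133 and 1036 against 39.2 to 728 (log2 fold change 2.41, SE 0.19). Sfrp1, a secreted Wnt inhibitor, was at 3906, 3702 and 4379 against 92.4 to 2079 (log2 fold change 2.68, SE 0.44, adjusted p = 0.00732, limma).

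Genes lower in cortex included adhesion molecules and a carnitine enzyme. Bbox1, the last enzyme of carnitine synthesis, was at 11.8, 17.8 and 24.1 in cortex, 25.8 to 168 in hippocampus, 163 to 299 in olfactory bulb and 572 to 654 in brainstem (log2 fold change -3.23, SE 0.37, adjusted p = 2.51e-05, limma). Chl1, a neural cell adhesion molecule, was at 116, 172 and 178 against 392 to 1894 (log2 fold change -2.44, SE 0.16). The secreted guidance cue Sema3e was at 6.42, 5.92 and 2.78 against 34.0 to 182 (log2 fold change -2.80, SE 0.41). Each separated cortex from the other 9 libraries. Gfap, the astrocyte intermediate filament, was lower in cortex, at 610 ± 68.6 (SD, n = 3) against 1620 ± 203 in olfactory bulb, 1211 ± 393 in hippocampus and 2104 ± 930 in brainstem (log2 fold change -1.35, SE 0.22, adjusted p = 0.00163, limma). With the Rn45s share as a covariate, 31 of the 69 named cortical calls were lost, with adjusted p of 0.0501 to 0.853, among them Sfrp1, Tbr1 and Gfap. Of 18 neuron markers 2 were higher in cortex (Camk2a and Slc17a7) and 3 lower, with sums of 5800 to 7110 in cortex against 4120 to 8240 elsewhere. Macrophage markers summed to 583 to 1140 in cortex against 231 to 1700 elsewhere, with 0 of 6 called and a median log2 difference of 0.93. Their part in the cortical calls was not tested.

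In brainstem the named gene with the largest rise encodes a retinoic acid enzyme. Cyp26b1, which degrades retinoic acid, was at 1534, 853 and 1092 normalised reads in brainstem against 1.04 to 21.7 elsewhere (log2 fold change 6.45, SE 0.39, adjusted p = 1.04e-10, limma). Aldh1a1, which makes retinoic acid, was at 7186, 5008 and 4586 against 200 to 576 (log2 fold change 4.20, SE 0.21, adjusted p = 2.61e-10, limma). A degrading and a synthesising enzyme were thus high in the same 3 libraries, and of 12 retinoic acid genes tested 2 were higher and 1 lower. Of these 12, 2 passed the filter on low values only through brainstem, so these counts are descriptions. Dao, D-amino acid oxidase, which breaks down D-serine, was at 265, 186 and 237 against 0 to 6.27 (log2 fold change 5.17, SE 0.44). Gldc, the glycine decarboxylase, was instead low, at 114, 31.0 and 121 against 988 to 1748 (log2 fold change -4.07, SE 0.31, adjusted p = 3.68e-06, limma). Extl1, a heparan sulfate glycosyltransferase, was at 307, 269 and 260 against 0 to 23.2 (log2 fold change 4.33, SE 0.47).

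Of 21 glutamate and GABA receptor genes, 5 were higher and 5 lower in brainstem. The AMPA receptor subunit Gria4 was at 5379, 2324 and 1652 in brainstem against 47.8 to 847 elsewhere (log2 fold change 3.98, SE 0.32, adjusted p = 1.74e-06, limma). The potassium channel modifier Kcng4 was at 206, 134 and 185 against 0.927 to 50.9 (log2 fold change 3.52, SE 0.38), and 9 of 21 potassium channel and transport genes were higher and 1 lower. Slit2 was at 525, 525 and 410 against 9.34 to 219 (log2 fold change 3.19, SE 0.31), the opposite end from olfactory bulb. Chrdl1, a secreted BMP antagonist that matures synapses, was lower in brainstem, at 47.2, 27.7 and 23.1 against 694 to 4357 (log2 fold change -5.95, SE 0.16, adjusted p = 1.03e-16, limma). Of 30 secreted synapse regulators, 5 were higher and 9 lower, with Sparc at 36250, 33350 and 23830 against 3975 to 9144 (log2 fold change 2.26, SE 0.11). St6galnac5, a ganglioside sialyltransferase, was at 10.5, 26.1 and 5.78 against 652 to 1076 (log2 fold change -5.63, SE 0.22). The glutamate transporter Slc1a3 was lower, at 8357 ± 2972 (SD, n = 3) against means of 37900 to 39230 in the other regions, while the water channel Aqp4 was higher, at 26300 ± 3321 against means of 10250 to 13560.

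Of 14 genes listed as non-telencephalic astrocyte genes, 8 were higher in brainstem and 1 was lower. Among the higher was the angiotensinogen gene Agt, at 1146, 875 and 1236 against 78.8 to 244 (log2 fold change 2.76, SE 0.28, adjusted p = 2.52e-06, limma). Of the 14, 2 passed the filter only through brainstem and had to be higher there. In olfactory bulb 4 of the same 14 were called higher (Slc43a3, Gria1, Slc6a11 and Slc6a9) and 1 lower. Of 13 telencephalic astrocyte genes, 0 were higher and 7 lower in brainstem. Markers of other cells were high in the same libraries. Oligodendrocyte markers were higher for 13 of 15 and choroid plexus markers for 10 of 13, of which 4 passed the filter only through brainstem. Neuron markers were higher for 5 of 18 (Nefm, Slc17a6, Nefl, Stmn2 and Snap25) and lower for 4. Macrophage markers were higher for 4 of 6, ependymal markers for 3 of 4 and mural and fibroblast markers for 3 of 12. Of those tested, 3 neuron markers, 1 ependymal marker and 1 mural or fibroblast marker passed the filter only through brainstem. Leaving out 1 library at a time, the macrophage calls of Lyve1 and Lyz2 were lost in 7 of 12 fits. Those of Cd163 and Mrc1 were lost in at least 1. Summed oligodendrocyte markers were 54400 to 119000 in brainstem against 9990 to 35500 elsewhere, and all of these markers had reads in every region. Slc4a5, at 819, 1018 and 289 in brainstem, is itself on the choroid plexus list. Brainstem library 3 had the lowest choroid plexus sum of the 3, 8580 against 105000 and 144000, and the highest oligodendrocyte sum, 119000 against 54400 and 98500. It held 1092 normalised reads of Cyp26b1, 237 of Dao and 4586 of Aldh1a1. With the Rn45s share as a covariate, 37 of the 129 named brainstem calls were lost, by adjusted p or by fold. Among them were the 3 ependymal calls (Foxj1, Cfap126 and Tekt1), at adjusted p of 0.0506 to 0.196 (limma). Ttr, Mbp and Mobp were lost too. The part of RNA from other cell types in the brainstem calls was not tested.

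Of 24 cholesterol synthesis genes and 45 ribosomal protein genes tested, 0 were called in any region. Of 32 core astrocyte markers, 7 were called in brainstem and 2 in each of the other regions. Over the 12 astrocyte and nuclear factor I genes followed throughout, 4 of 48 regional comparisons were called, although 27 had an adjusted p under 0.05. Of all genes, 3.09% to 10.4% were called per region, and their counts without the fold threshold are given with the processing checks. By limma's F test 11 of the 12 differed among regions at an adjusted p under 0.05, against 23.4% of all genes. The lists were drawn up with earlier results of these data known, and their counts are read beside the background shares given above.

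The control libraries gave a separate set of regional contrasts, fitted with 8 means over all 24 libraries, with which the calls could be set side by side. Of the 853 olfactory bulb calls, 97.9% had the same sign in controls, as did 92.1% of 380 in hippocampus, 98.1% of 369 in cortex and 96% of 1242 in brainstem. Over all genes the shares were 70.8%, 61.4%, 64.4% and 70.1%. Reads on Rn45s were split by region in controls too. They made up 2.14% to 2.93% of olfactory bulb controls and 0.966% to 2.36% of hippocampal ones. In cortical controls they made up 19.0% to 20.9%, and in brainstem controls 18.0% to 25.6%. The part of the Rn45s share in the matching signs was not tested. In olfactory bulb 588 genes were called in the same direction in both sets, 68.9% of the calls in libraries labelled knockout and 61.4% of the 957 in controls. In brainstem this held for 745 genes (60% and 68.3% of 1091), in cortex for 216 (58.5% and 50.5% of 428) and in hippocampus for 120 (31.6% and 56.6% of 212). Genes called in opposite directions numbered 0 in all 4 regions. In controls 8.57% of all 12744 genes were called for olfactory bulb, 9.78% for brainstem, 3.49% for cortex and 1.73% for hippocampus. For patterning factors the log2 fold changes in the same fit, libraries labelled knockout first and controls second, were -7.84 and -7.50 for Lhx2 in brainstem, 4.59 and 5.32 for Sp8 in olfactory bulb, 3.86 and 2.95 for Emx2 in hippocampus and 3.29 and 2.31 for Six3 in cortex. The differences were -0.34 (SE 0.25), -0.72 (SE 0.68), 0.91 (SE 0.39) and 0.98 (SE 0.55), with adjusted p of 0.718, 0.996, 0.773 and 0.972 (limma).

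**Figure D4:**
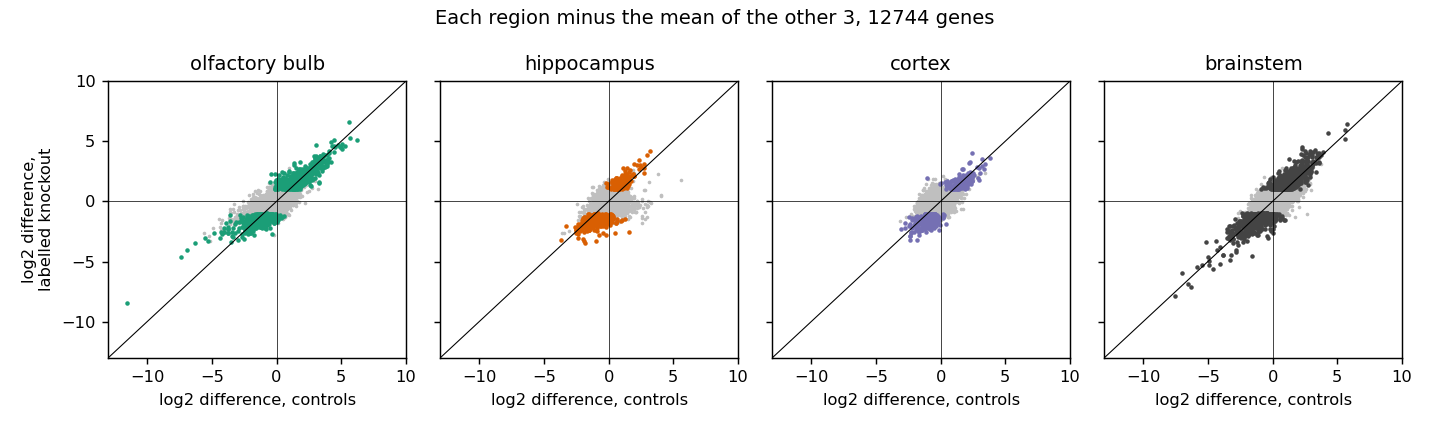
Log2 difference of each region from the mean of the other 3 in libraries labelled knockout (vertical) against controls (horizontal), 1 panel per region, from 1 fit over 12744 genes. Coloured points are genes called among the 12 libraries labelled knockout, of which 92.1% to 98.1% have the same sign in controls. The line marks equal differences.

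When each library was matched to the mean profiles of the 4 control regions, 9 of the 12 libraries labelled knockout correlated best with their own region. The 3 exceptions were the hippocampal libraries, which correlated at 0.951 to 0.960 with control cortex and at 0.941 to 0.951 with control hippocampus. Matched to the means of libraries labelled knockout, with the library itself left out, all 12 were nearest their own region, and so were all 12 controls. Controls matched to control means, with the library left out, gave 11 of 12, since cortex control 1 was nearer hippocampus (0.963 against 0.957). Choroid plexus genes differ between the 2 sets of hippocampal libraries. Enpp2 was at 1310 to 3150 in hippocampal libraries labelled knockout and 34400 to 74900 in controls, and Kl at 86.0 to 214 and 2200 to 5320. In controls the choroid plexus list had a median log2 difference of 2.95 in hippocampus, against -0.43 in libraries labelled knockout. Their part in the match to cortex was not tested.

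The size of each regional difference was then compared between labels by an interaction term. At an adjusted p under 0.05, limma called 0 of 12744 genes for olfactory bulb (0%; 646 or 5.07% at an unadjusted p under 0.05) and 0 for hippocampus (0%; 777 or 6.1% unadjusted). It called 2 for cortex (0.0157%; 4.64% unadjusted) and 20 for brainstem (0.157%; 8.96% unadjusted), 12 of the 20 with a higher and 8 with a lower contrast in libraries labelled knockout. By DESeq2 the counts were 52 in brainstem, 41 in hippocampus, 7 in cortex and 4 in olfactory bulb, and by edgeR 1 in olfactory bulb, 0 in hippocampus and 12 in brainstem. The hippocampal count was 16 without cortex control 1 and 8 without brainstem control 1. The brainstem count was 0 without brainstem control 1, 5 without control 3 and 242 without control 2. It was 43 without brainstem library 1 labelled knockout, 36 without hippocampus control 1, and 13 without olfactory bulb control 3 or without the libraries labelled knockout hippocampus 1, cortex 2 or brainstem 3. A difference that misses the threshold does not show that the contrast is equal in both labels.

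In cortex the called genes were Slc14a1 and Kcnip3. Slc14a1, a urea transporter, was at 580, 487 and 327 normalised reads in cortical libraries labelled knockout and 1010, 1135 and 1208 in cortical controls, while olfactory bulb libraries labelled knockout held 2113 to 2419 and controls 1523 to 1720. Its cortical contrast was lower by 1.70 in log2 (adjusted p = 0.00912, limma) and lost its call without cortex control 2 or 3, or without cortical library 3 labelled knockout. Kcnip3, a calcium-binding potassium channel partner, was at 426, 510 and 537 in cortical libraries labelled knockout against 1217, 1488 and 1544 in controls. Its difference of -1.36 (adjusted p = 0.0273, limma) lost its call in 12 of the 24 fits with a library left out, with an adjusted p of up to 0.286.

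Among the 5 genes named for brainstem, 3 had lower values under the knockout label in every region but brainstem, with no overlap there between labels. Gfap was at 1407 to 1801 in olfactory bulb libraries labelled knockout against 3230 to 4088 in controls, at 881 to 1619 against 3406 to 4036 in hippocampus and at 553 to 674 against 893 to 1321 in cortex. In brainstem it was at 1624, 3114 and 1464 against 1174, 1797 and 1453, so that these overlap, and the difference in contrast was 1.68 in log2 (adjusted p = 0.0118, limma). Tprkb, a partner of a tRNA-modifying complex, showed the same layout, with no overlap between labels in 3 regions and overlap in brainstem, where it was at 960.5 to 1375 against 710 to 1248. Its difference was 1.5 (adjusted p = 0.0118, limma). Hsd11b1, which reactivates glucocorticoids, was lower under the knockout label in olfactory bulb, hippocampus and cortex with no overlap between labels, and in brainstem at 746.5 to 903 against 608 to 862. Its difference was 1.73 (adjusted p = 0.0121, limma).

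The other 2 genes had a lower brainstem contrast under the knockout label. Rasgef1a, a guanine nucleotide exchange factor, was at 5.14, 3.20 and 5.72 in brainstem libraries labelled knockout against 45.8, 16.2 and 42.9 in controls, and its difference was -2.42 (adjusted p = 0.0121, limma). Peg10, an imprinted gene derived from a retrotransposon, was at 154, 179 and 149 against 602, 233 and 236, where brainstem control 1 stands far above the others, and its difference was -1.58 (adjusted p = 0.0121, limma). Without brainstem control 1 all 5 had an adjusted p of 0.0549, and Peg10 a difference of -1.13.

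**Figure D5:**
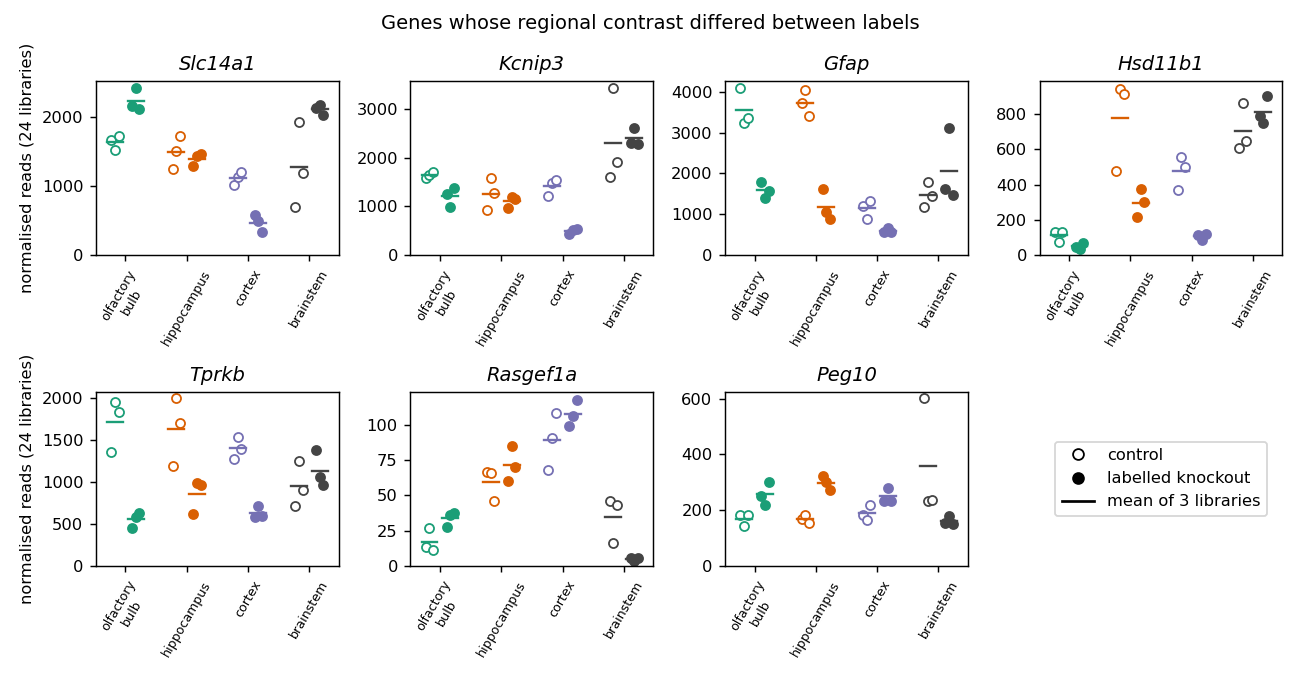
Normalised reads, on the scale of all 24 libraries, of the 7 named genes whose regional contrast differed between labels. Open circles are controls, filled circles libraries labelled knockout, and bars the mean of 3 libraries. Slc14a1 and Kcnip3 are lower in cortex under the knockout label, and Gfap and Tprkb are lower in every region but brainstem, where both labels overlap.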

How the data were processed

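RNA-seq libraries from sorted astrocytes were analysed, 12 labelled knockout in the main test and 24 in all. Each library's deposited file holds a normalised signal for 24421 gene names. Dividing by the smallest step gave whole reads for 100% of non-zero values (within 0.01 read), and those reads were used. Names turned into dates (27) were left out. The submitters' processing notes list FastQC, STAR 2.5.0a, DESeq2 1.20.0 and mm10 without roles. The counting tool and annotation are not given in the sources used here.

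Reads were divided by median-of-ratios size factors over the 12 libraries. The 11929 genes that reached 20 in 3 or more libraries were fitted as log2(value + 5) with 1 mean per region in limma 3.58.1 (R 4.3.3), with trend and robust moderation, 8 residual degrees of freedom, two-sided, and Benjamini-Hochberg adjustment over all genes. Adding 5 understates changes of low genes. A count test, edgeR 4.0.16 on the recovered reads, called 1186 genes in brainstem, 876 in olfactory bulb, 434 in hippocampus and 363 in cortex. DESeq2 1.42.0 was also run. The comparison of labels used 8 means over 24 libraries (12744 genes, 16 residual degrees of freedom). Gene coordinates are from GENCODE vM21 of mm10.

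Named genes were, per region, the 10 higher and 6 lower called genes with the largest change, no overlap with the other 9 libraries and a mean of at least 50 on the higher side, skipping unnamed models, plus 12 astrocyte genes, up to 6 called members per list (35 lists) and the 5 smallest p for the difference between labels. Members and lists were chosen with earlier results of these data known. Floors of 3 reads and intervals at 95% (exact Poisson) cover counting error only. On simulated counts with 100 changed genes per fold, 26 to 33 were recovered at 2-fold and 78 to 86 at 4-fold, and 3 to 9 unchanged genes were called. A 2-fold change lies at the fold threshold itself, so recovery at 2-fold does not measure the sensitivity of the test alone. Each library was also left out in turn. Fits with sex, with the Rn45s share, and without the olfactory bulb and brainstem libraries 3 labelled knockout were chosen after seeing the data. Of the patterning factors, 1 is counted in its list but is not reported here by name.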

Additional observations from a re-analysis of the deposited data

Results flagged for a closer look

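A test of the difference between labels called 7 named genes, which are given here as values. Their contrasts of 1 region against the other 3, libraries labelled knockout minus controls in log2, were -1.36 for Kcnip3 and -1.70 for Slc14a1 in cortex. In brainstem they were 1.68 for Gfap, 1.73 for Hsd11b1, 1.5 for Tprkb, -1.58 for Peg10 and -2.42 for Rasgef1a. All 5 brainstem calls were lost without brainstem control 1, at an adjusted p of 0.0549 (limma). Those of Hsd11b1, Rasgef1a and Peg10 were also lost with reads thinned to the shallowest library.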

How the results depend on the processing

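Regional counts stayed within 1.5 times under other added constants, filters, TMM scaling, edgeR, DESeq2, voom, thinning to equal total reads, sex as a covariate and each library left out, where they ranged from 582 to 947 in olfactory bulb, 257 to 469 in hippocampus, 263 to 436 in cortex, 1074 to 1372 in brainstem and 2315 to 2956 for the F test. Without the fold threshold the counts were 1561, 792, 724 and 2404. With the Rn45s share as a covariate, added after seeing the data, they were 97 in hippocampus, 137 in cortex and 720 in brainstem. Emx2 in olfactory bulb reversed to 0.34 by edgeR. Of 393 named regional calls, 295 were kept in every fit with a library left out, and 146 were lost with the Rn45s covariate. The cause of these changes was not tested.

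Counts for the difference between labels depended on the tool. In olfactory bulb edgeR gave 1, DESeq2 4 and voom 2. In hippocampus an added constant of 1 gave 1, DESeq2 41, sex as a covariate 6 and leaving out the olfactory bulb and brainstem libraries 3 labelled knockout 1, the last 2 chosen after seeing the data. In cortex no filter gave 0, DESeq2 7, the Rn45s covariate 1 and leaving out those libraries 1. In brainstem no filter gave 11, edgeR 12, DESeq2 52, thinned reads 11 and leaving out those libraries 8. Leaving out 1 library at a time gave 0 to 1, 0 to 16, 0 to 6 and 0 to 242.

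Deviations of same-numbered libraries correlated at -0.13 to 0.125, and those of libraries with different numbers at -0.109 to 0.126. These values showed no pairing by replicate number but cannot exclude a weak one. With a replicate block, regional counts were 845, 377, 367 and 1232, and the label difference gave 1 in olfactory bulb, 20 in hippocampus and 32 in brainstem. The shallowest library, at 1090777 reads, limits what can be seen in brainstem.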
